A study of Apostichopus japonicus with 9 samples.

Results

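Aja-miR-153-3p, Aja-miR-137 and Aja-miR-153-1-p5 are the entries of the miRNA profile of the sea cucumber *Apostichopus japonicus* named after the miR-153 and miR-137 families. They were chosen by name alone, and they are 3 of the 475 entries found in 9 small RNA libraries of the respiratory tree. The animals were kept for 3 d in sea water with a dissolved oxygen (DO) of 2 mg/L (DO2 group, severe hypoxia), 4 mg/L (DO4 group, mild hypoxia) or 8 mg/L (DO8 group, the control), with oxygen lowered by nitrogen aeration in the DO2 and DO4 groups. There were 3 libraries per group. Per the study's methods the RNA of 3 animals was mixed for each, so the spread between libraries is taken as one between pools. The question addressed here is how the 3 entries varied with oxygen.

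miRNAs are short RNAs that guide a silencing complex to messenger RNAs, mainly through the bases at positions 2 to 8, the seed. miR-153 and miR-137 are old families that many bilaterian animals share, and both are best known from nervous tissue. In zebrafish, miR-153 acts on the mRNA of a SNAP-25 protein, which helps synaptic vesicles to fuse, and in mammals miR-137 is abundant in the brain and takes part in the maturation of neurons. The respiratory tree is a branched hollow organ that opens into the cloaca and is filled and emptied by muscle. It contains nerves as well as muscle and epithelium, and in RNA of a whole organ, fewer cells of a type cannot be told apart from less RNA per cell.

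The 3 sequences are shown because the 2 miR-153 entries are unlike each other. The files give them as DNA letters, 5′ to 3′, and the capitals mark the seed.
Aja-miR-153-3p: tTGCATAGtcacaaaagtgatt
Aja-miR-137: tTATTGCTtgagaatacacgta
Aja-miR-153-1-p5: tCTCTCTCtctctgacag
Aja-miR-153-3p and Aja-miR-137 are 22 nt long, and each had a seed that no other of the 475 entries had. Aja-miR-153-1-p5 is 18 nt long, the shortest length that the study kept. Its first 13 bases alternate between T and C, and the other 5 follow them, as the capitals in the next line show.
Aja-miR-153-1-p5: TCTCTCTCTCTCTgacag
A run of at least 8 alternating bases, CTCTCTCT or TCTCTCTC, read on the printed strand, was held by 2 of the 475 entries (0.421%), and the other was Aja-miR-14, which was listed in a single library. The seed of Aja-miR-153-1-p5 lies inside the run. Set side by side without gaps, no other entry matched Aja-miR-153-3p at more than 14 of 22 bases, Aja-miR-137 at more than 12 of 22 or Aja-miR-153-1-p5 at more than 14 of 18. The ending p5 was carried by no other entry, and its meaning is not given in the sources used here. In a pairing added after the data had been seen and computed with RNAduplex, Aja-miR-153-1-p5 and Aja-miR-153-3p gave −4.9 kcal/mol and 8 base pairs. The 12 pairs of entries named as the 5p and 3p arms of 1 miRNA gave −27.4 to −0.3 kcal/mol with a median of −16.95, and 4 of them paired more weakly than Aja-miR-153-1-p5 and Aja-miR-153-3p. These 4 were the pairs of miR-6236, miR-6240, miR-2478a and miR-466i. The names miR-6236 and miR-6240 are regarded as rRNA fragments, and miR-2478a is on the tRNA-like list. Of the 12, Aja-miR-9-5p and Aja-miR-9-3p, the arms of a nervous system miRNA, gave −22.7 kcal/mol.

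The deposited values are read numbers that were scaled with 1 factor per library, and they have no fixed unit. The worth of 1 read was 1.22 to 6.18 in the DO2 libraries and 0.556 to 0.682 in the other 6, and all 24 values of the 3 entries above 0 were whole numbers of reads within a tolerance of 0.02. The reads so worked out, summed over the entries of a library, numbered 335658 to 1740914 in the DO2 group. The range was 4795819 to 6024869 for DO4 and 4681523 to 5720697 for DO8 (two-sided exact permutation test, DO2 against the other 6, p = 0.0238, the smallest this design allows). Relative to all clean reads these sums were 3.45% to 15.8% with DO2 and 44.4% to 52.4% otherwise. They are below the numbers of miRNA reads that the study lists for the same libraries, for a reason not known, and so are no full miRNA read numbers. The DO2 libraries therefore stood apart in miRNA reads, and low values are less certain there. The study lists similar numbers of clean reads for all libraries, but larger parts of rRNA and of unannotated reads in DO2. This difference in composition cannot be told apart from the oxygen level. Because reads were whole miRNAs, no correction for length was made.

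Aja-miR-137 was the most abundant of the 3 in every library. Its values were 742, 1129.6 and 1733 in DO2_1, DO2_2 and DO2_3. They were 487, 393 and 686 in DO4_1, DO4_2 and DO4_3, and 388, 411 and 481 in DO8_1, DO8_2 and DO8_3. All DO2 libraries lay above all others, while the DO4 and DO8 libraries overlapped. The group means were 1202 ± 499.4 (SD, n = 3) in DO2, 522 ± 149 in DO4 and 427 ± 48.6 in DO8, a DO2 level 2.81 times that of DO8. From 120 to 1424 reads stood behind a value, so counting error was small. Aja-miR-137 ranked between 29 and 36 among the listed entries of a library.

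Aja-miR-153-3p, the full-length miR-153 form, was lower than Aja-miR-137 in every library and was likewise highest in DO2. Its values were 123.7, 109.7 and 299 in the DO2 libraries in the order of their numbers. In DO4 they were 41.0, 31.4 and 44.3, and in DO8 56.8, 60.0 and 54.6. The 3 groups did not overlap, and their order was DO2, DO8, DO4. The means were 178 ± 106 (SD, n = 3) in DO2, 38.9 ± 6.73 in DO4 and 57.1 ± 2.74 in DO8, so that DO2 stood at 3.11 times and DO4 at 0.681 times the control. The reads behind the values were 20, 34 and 246 in the DO2 group, 46 to 70 in the DO4 group and 94 to 108 in the DO8 group. Without DO2_3 the DO2 mean was 117 and stood at 2.04 times the control. The 95% Poisson interval of DO4_3 reached from 34.5 to 56.0 and overlapped that of DO8_3, which was 44.1 to 66.8. That of DO4_2, 23.0 to 41.8, lay below the intervals of all 3 DO8 libraries. Such intervals cover counting error only, because PCR reads are not independent molecules.

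Aja-miR-153-1-p5, the entry with the repeat, was near the limit of detection. Its values were 43.3, 16.1 and 10.95 in DO2, from 7, 5 and 9 reads. It was at 0 in all 3 DO4 libraries. In DO8 the values were 3.59, 5.003 and 2.32, from 6, 9 and 4 reads. The groups did not overlap and had the same order as Aja-miR-153-3p, but the read numbers of DO2 and DO8 did overlap. At the mean value of DO8, 3.64 ± 1.34 (SD, n = 3), 0.588, 1.13 and 2.99 reads would have stood in DO2_1, DO2_2 and DO2_3. A count of 0 allows up to 3 reads in each DO4 library, which is a value of 1.90 to 2.05. The DO2 mean of 23.5 ± 17.4 was 11.9 times the mean of this limit over the DO4 libraries, and the DO8 mean 1.84 times. The fold for DO2 rests largely on DO2_1, without which it was 6.85. In RPM, the reads relative to the clean reads of a library, DO2 stood at 2.46 and DO8 at 2.05 times the same limit. These folds leave out the counting error of DO2 and DO8, so they are no lower bounds. On deposited values, the 95% Poisson intervals of DO8_1 (1.32 to 7.81) and DO8_3 (0.633 to 5.95) reached below the limit. That of DO8_2 began at 2.29, and those of DO2_1, DO2_2 and DO2_3 began at 17.4, 5.24 and 5.01. The folds without single DO2 libraries were added after the data had been seen. Aja-miR-153-1-p5 amounted to 35.0%, 14.7% and 3.66% of Aja-miR-153-3p in the DO2 libraries and to 4.26% to 8.33% in DO8. On deposited values the 2 entries also differed in the DO2 library that was highest. For Aja-miR-153-1-p5 it was DO2_1, with the fewest miRNA reads. For Aja-miR-153-3p and Aja-miR-137 it was DO2_3, with the most miRNA reads of the DO2 libraries. In reads, and in RPM at 0.720, 0.504 and 0.818, DO2_3 was the highest for Aja-miR-153-1-p5 too.

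**Figure D1:**
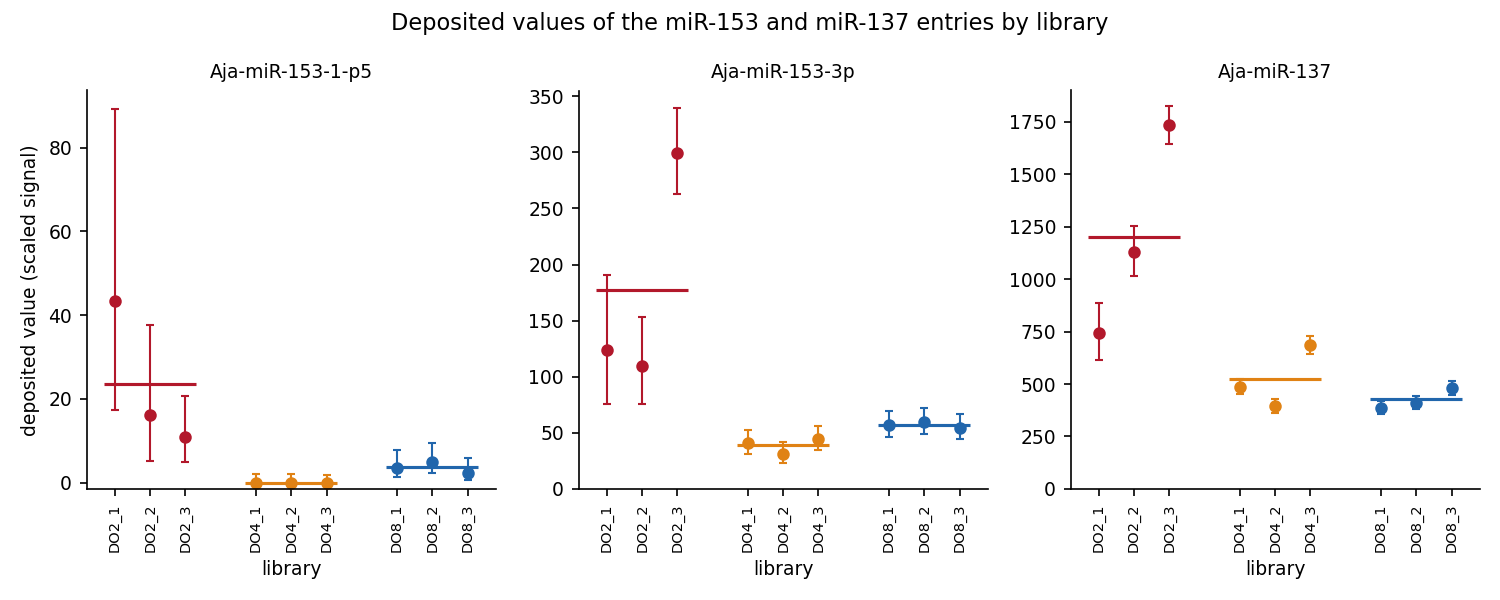
Deposited values (y axis, scaled signal, linear) of each entry in the 9 libraries (x axis). Points are libraries with 95% Poisson counting intervals (up to 3 reads for a value of 0), lines are group means, and the y axes differ between panels. DO2 lies above both other groups in every panel, and DO4 lies below DO8 for Aja-miR-153-3p (31.4 to 44.3 against 54.6 to 60.0) but not for Aja-miR-137.

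**Figure D2:**
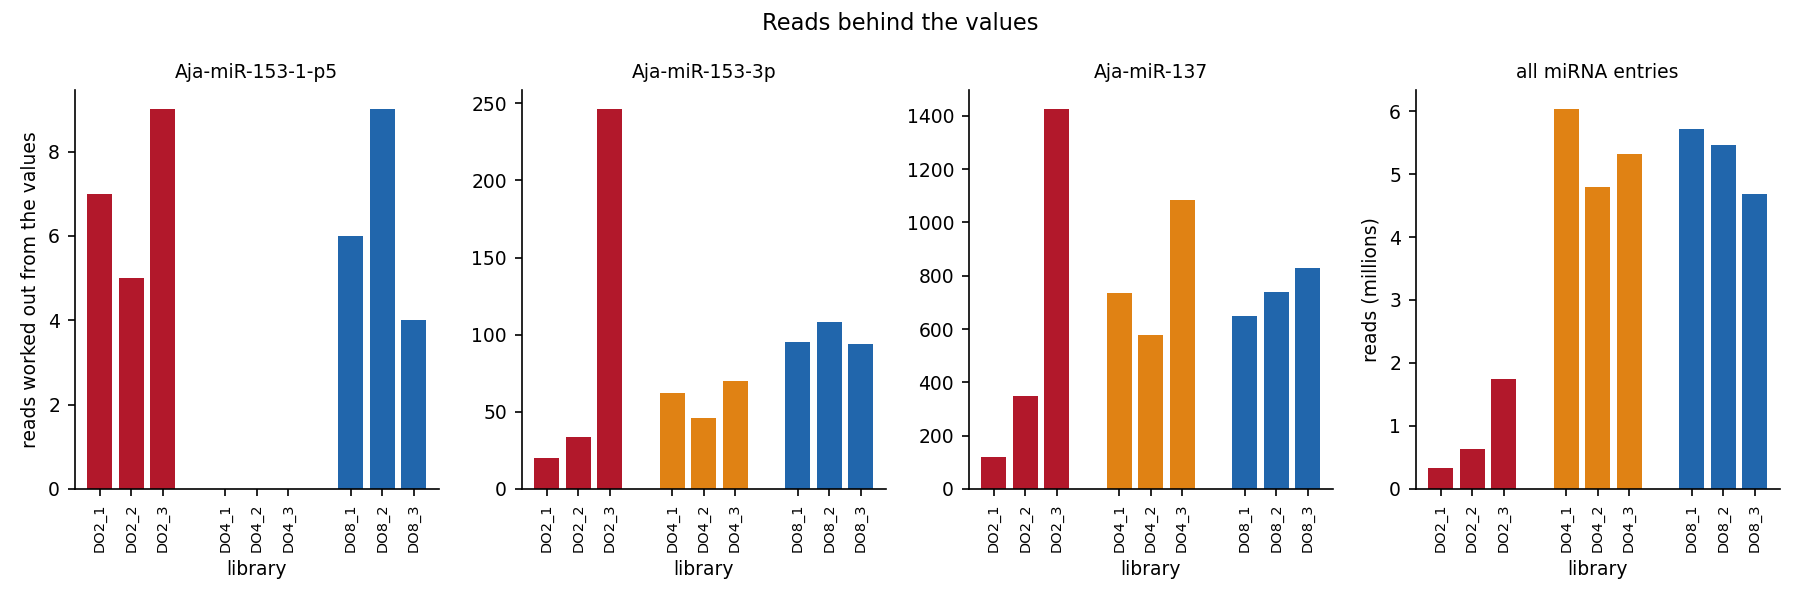
Reads behind each value (y axis, linear) in the 9 libraries (x axis) for the 3 entries, with the reads worked out for all entries of each library at the right. Aja-miR-153-1-p5 never exceeded 9 reads, and the high DO2 values of Aja-miR-153-3p in DO2_1 and DO2_2 rest on 20 and 34 reads.

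The differences were tested with limma on log2(value + 1) over the 90 entries present in every library of 1 group or more, with p adjusted after Benjamini and Hochberg over the 90. In DO2 against DO8, 31.1% of the 90 entries were called at an adjusted p under 0.05, 23.3% as higher and 7.78% as lower, and for 30.0% all DO2 values exceeded all DO8 values. All 3 entries were among the higher ones. The log2 difference was 2.21 (SE 0.61, adjusted p = 0.0221) for Aja-miR-153-1-p5. It was 1.47 (SE 0.49, adjusted p = 0.0453) for Aja-miR-153-3p and 1.41 (SE 0.37, adjusted p = 0.0159) for Aja-miR-137. Ordered by size of difference they ranked 19, 23 and 24 of 90. Some entries ranked above them, such as Aja-miR-2835-5p and Aja-miR-1973-5p, were at 0 in every DO4 and DO8 library. Those entered the test through DO2 alone and could only be higher there. They also count in the shares of entries higher in DO2, here and below, so ranks and shares are no independent background. The median over the 90 entries was −0.03. The call for Aja-miR-153-3p was the least stable. It was lost without any one of the DO8 libraries (adjusted p = 0.123, 0.107 and 0.114 without DO8_1, DO8_2 and DO8_3) and without DO4_1 (0.0581) or DO4_3 (0.0603). That for Aja-miR-137 was lost without DO8_1 (0.0651) or DO8_2 (0.0539), and that for Aja-miR-153-1-p5 without DO8_1 (0.0708) or DO8_3 (0.0861), all in limma with Benjamini-Hochberg adjustment.

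In DO2 against DO4, which uses the same DO2 libraries, 31.1% of the 90 entries were called, 24.4% as higher and 6.67% as lower, and for 25.6% all DO2 values exceeded all DO4 values. The 3 entries were again higher in DO2. Aja-miR-153-3p differed by 2.02 (SE 0.49, limma adjusted p = 0.00907) on the log2 scale. Aja-miR-137 differed by 1.15 (SE 0.37, adjusted p = 0.0370), and this call was lost on leaving out any of 7 of the 9 libraries, all but DO2_1 and DO4_3, with an adjusted p of up to 0.0911. Aja-miR-153-1-p5 differed by 4.38 (SE 0.61, adjusted p = 0.000396), a figure that depends on the 1 added to the zeros of DO4 and is no bound.

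In DO4 against DO8, 0.0% of the 90 entries were called by limma, and 1 of them had an unadjusted p under 0.05. That entry was Aja-miR-153-1-p5, with a log2 difference of −2.17 (SE 0.61, limma adjusted p = 0.489), the lowest of the 90. Aja-miR-153-3p differed by −0.56 (95% interval −1.66 to 0.54, adjusted p = 0.802) and Aja-miR-137 by 0.26 (95% interval −0.56 to 1.08, adjusted p = 0.815). Values wholly lower in DO4 than in DO8 were found for 2.22% of the 90 entries, and these 2 entries were the 2 named after miR-153. They were also the only entries whose deposited values followed the order DO2, DO8, DO4 without overlap. For Aja-miR-153-1-p5, whose sequence is unlike that of Aja-miR-153-3p, this rests on 4 to 9 reads per library in DO8. When the libraries were brought to equal miRNA totals, 3 entries followed that order, the third being Aja-miR-193-3p, and 6 lay wholly lower in DO4 than in DO8, Aja-miR-124 among them.

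The higher level in DO2 depended on how the libraries were scaled. Expressed as a share of the summed values of a library, in ppm, Aja-miR-137 had a share of 577 ± 231 (SD, n = 3) in DO2, 149 ± 47.5 in DO4 and 142 ± 32.3 in DO8. The shares of Aja-miR-153-3p were 85.0 ± 48.9, 11.01 ± 1.89 and 18.8 ± 1.92 ppm. Those of Aja-miR-153-1-p5 were 11.3 ± 8.37 in DO2 and 1.18 ± 0.413 in DO8, with 0 in DO4. For each entry all 3 DO2 shares exceeded the 6 others (two-sided exact permutation test, p = 0.0238, adjusted p = 0.0952 over 12 comparisons), which was also the case for 36.7% of the 90 tested entries. Without DO2_1 the mean DO2 share of Aja-miR-153-1-p5 was 6.56 ppm, and its difference from DO8 was 5.38 instead of 10.1 ppm. Without DO2_3 the share of Aja-miR-153-3p was 56.8 ppm, and its difference from DO8 38.0 instead of 66.2 ppm. Between 3 libraries and 3 the smallest p of this test is 0.1, and it was reached wherever DO2 was compared with a single group. The shares of Aja-miR-137 in DO4 and DO8 overlapped (exact permutation p = 0.8).

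Set against the clean reads of the libraries instead, the DO2 libraries no longer lay above the DO8 libraries. Aja-miR-137 gave 12.3, 35.3 and 129.4 RPM in the DO2 libraries, which spanned the range of 57.4 to 97.1 in the other 6. Aja-miR-153-3p gave 2.06, 3.43 and 22.4 in DO2, against 4.57 to 6.28 in DO4 and 8.51 to 9.41 in DO8. The DO4 and DO8 values of Aja-miR-153-3p did not overlap on this scale either (exact permutation p = 0.1). How many of the 90 tested entries lay wholly lower in DO4 in RPM was not worked out. At equal miRNA totals it was 6.67%. Aja-miR-153-1-p5 gave 0.504 to 0.818 in DO2 and 0.379 to 0.784 in DO8. In DO2 against DO8 the exact permutation p was 0.9 for Aja-miR-137, 1.0 for Aja-miR-153-3p and 0.5 for Aja-miR-153-1-p5. In limma on this scale the log2 differences of DO2 against DO8 were −0.76 for Aja-miR-137, −0.54 for Aja-miR-153-3p and 0.10 for Aja-miR-153-1-p5 (adjusted p = 0.336, 0.467 and 0.719). In DO2 against DO4, Aja-miR-153-1-p5 was still called higher on this scale (0.74, limma adjusted p = 0.0203). The scaling moved the whole profile, and the median over the 90 entries in DO2 against DO8 was −0.03 on deposited values, 0.51 at equal miRNA totals and −1.52 in RPM of clean reads. Relative to that median, Aja-miR-153-3p stood higher by 1.498, 1.505 and 0.978 on the 3 scales. Aja-miR-137 stood higher by 1.44, 1.45 and 0.76, and Aja-miR-153-1-p5 by 2.24, 2.22 and 1.63. A factor per library moves an entry and the median alike, so these distances cannot test the scaling. They differ between the scales only through the 1 added, which weighs more on the low RPM values. The lower level of Aja-miR-153-3p in DO4 than in DO8 had the same direction on the 3 scales, with log2 differences of −0.56, −0.76 and −0.64, none of them called. The study also ran real-time PCR, which does not use the library scaling. It reports both miR-153 entries as higher in DO2 than in the other groups. For the full-length form it describes a rise as oxygen fell, which puts DO4 above DO8, the reverse of the values here. Every miRNA so measured was reported as higher in DO2, including some that were lower there by the study's sequencing. Why PCR and sequencing differed was not tested.

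**Figure D3:**
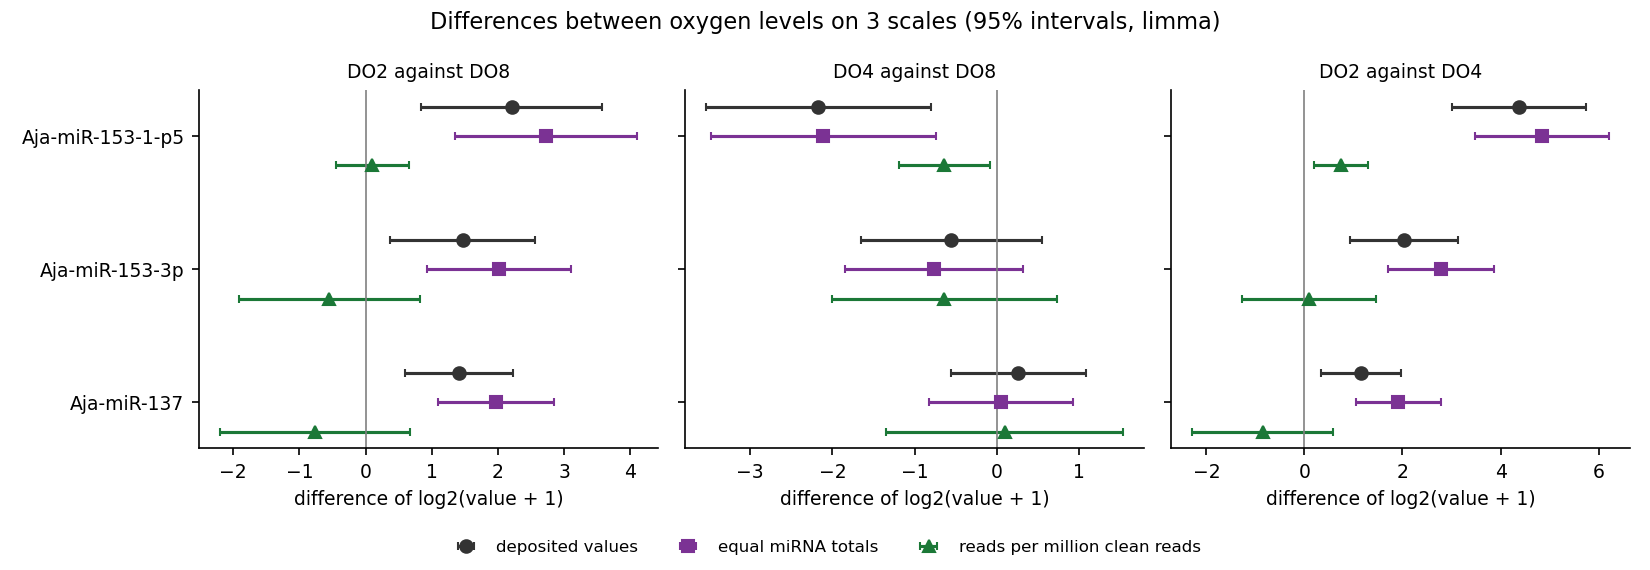
Differences of log2(value + 1) (x axis) for the 3 entries (y axis) in the 3 comparisons, with 95% intervals from limma. Circles are deposited values, squares equal miRNA totals and triangles RPM of clean reads. The DO2 differences from DO8 are above 0 on the first 2 scales and have intervals across 0 on the last, where those of Aja-miR-137 and Aja-miR-153-3p are negative (−0.76 and −0.54).

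A ratio of 2 entries of 1 library is free of the scaling. Aja-miR-153-3p amounted to 16.7%, 9.71% and 17.3% of Aja-miR-137 in DO2, to 8.41%, 7.97% and 6.46% in DO4 and to 14.6%, 14.6% and 11.3% in DO8. All 3 DO4 libraries lay below the 6 others. The log2 ratio, with 1 added to both values, was lower by 0.815 in DO4 than in DO8 on average (p = 0.1 by the exact permutation test, two-sided, which can give no smaller one, adjusted p = 0.133 over 12 comparisons of ratios). In DO2 against DO8 it differed by 0.056, far less than the spread within DO2 (exact permutation p = 1.0). Relative to Aja-miR-137, Aja-miR-153-3p was thus lowest in DO4.

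**Figure D4:**
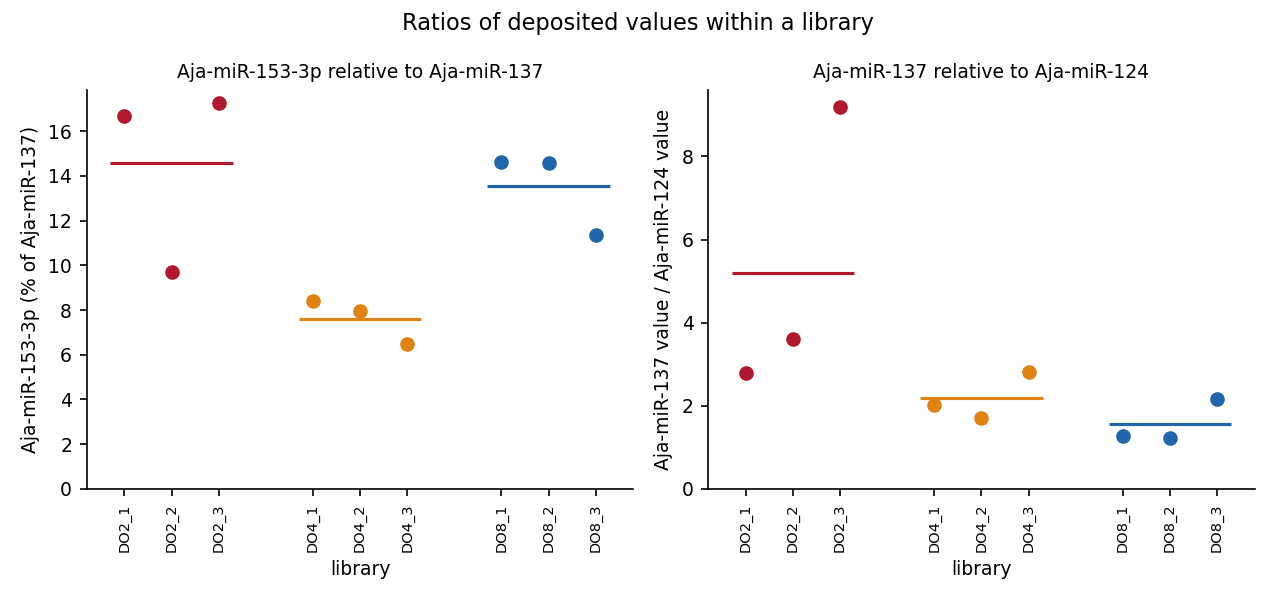
Ratios of deposited values within a library (y axes, linear from 0) in the 9 libraries (x axis), with group means as lines. Aja-miR-153-3p was 6.46% to 8.41% of Aja-miR-137 in DO4 and 9.71% or more in every other library, and the ratio of Aja-miR-137 to Aja-miR-124 was highest in DO2_3 (9.19), with DO2_1 (2.79) just under DO4_3 (2.81).

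None of the other tested miRNAs known from nervous tissue was called on deposited values. Of the 14 families on the nervous system list, 9 had no entry. Besides the 3 entries described, 6 entries of miR-7, miR-9 and miR-124 were listed and 5 were tested. Of these 5, limma called 0 in each of the 3 comparisons, beside 31.1% of the 90 entries in each comparison with DO2, and 0 had an unadjusted p under 0.05. The closest in DO2 against DO8 was Aja-miR-7-5p, of a family known from neurosecretory cells, at 0.96 (SE 0.45, adjusted p = 0.130). Aja-miR-124, of a family abundant in the vertebrate brain, was at −0.17 (adjusted p = 0.716), with values of 189 to 313 in DO2 and 222 to 337 in DO8. Aja-miR-9-5p, of a family active in neural progenitors of vertebrates, was at −0.75 (adjusted p = 0.223). This too varied with scaling. At equal miRNA totals 2 of the 5 were called higher in DO2 than in DO8, beside 33.3% of the 90 tested entries, and in RPM of clean reads 4 of the 5 were called lower, beside 57.8% of the 90.

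Aja-miR-137 and Aja-miR-153-3p were also set against the sum of the 6 other nervous system entries of the same library, with 1 added to both. Scaling enters such a ratio only through the 1 added. Aja-miR-137 was higher in DO2 than in DO8 by 1.35 and Aja-miR-153-3p by 1.405 on the log2 scale. For both, all 3 DO2 ratios exceeded the 6 others (two-sided exact permutation test, p = 0.0238, adjusted p = 0.133). How many of the 90 tested entries did so against the same sum was not worked out. With shares of the miRNA total it was 36.7%, so this may be common among entries. Aja-miR-137 made up 34.1%, 36.0% and 45.9% of the summed values of the 9 nervous system entries in the DO2 libraries. The range was 19.6% to 28.1% in DO4 and 16.2% to 26.1% in DO8. Aja-miR-153-3p made up 3.50% to 7.93%, 1.56% to 2.12% and 2.38% to 3.15% in the 3 groups in the same order. This comparison with the other entries was added after the data had been seen.

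**Figure D5:**
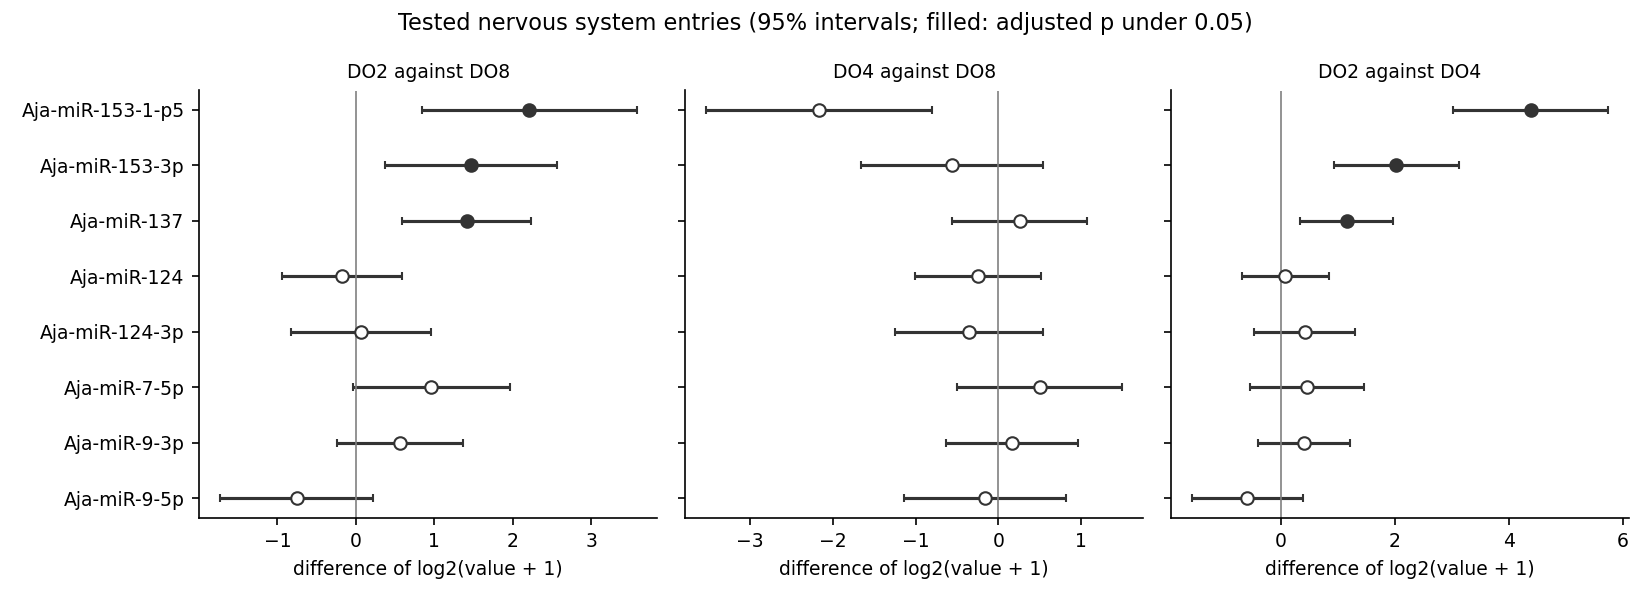
Differences of log2(value + 1) on deposited values (x axis) for the 8 tested nervous system entries (y axis), with 95% intervals from limma and filled points for an adjusted p under 0.05. The filled points are the miR-153 and miR-137 entries in the 2 comparisons with DO2. The 5 other entries lie between −0.75 and 0.96 in DO2 against DO8.

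Over the 9 libraries, Aja-miR-137 was the entry whose log2(value + 1) was most like that of Aja-miR-153-3p (Pearson r = 0.87, 9 points that share their scaling, a description only). Next came Aja-miR-1973-5p, Aja-miR-2835-5p and 2 predicted miRNAs (r = 0.85 to 0.86), 4 low entries found in every DO2 library and at 0 in the other 6. The same 4 with Aja-miR-153-3p were the most like Aja-miR-137 (r = 0.83 to 0.89). Aja-miR-153-1-p5 had other neighbors. They were Aja-miR-133 (r = 0.88), a muscle miRNA family, Aja-miR-235a (0.86), Aja-miR-6236 (0.86), Aja-miR-6240-3p (0.85) and Aja-miR-6240 (0.85), while it stood at r = 0.79 with Aja-miR-153-3p and 0.54 with Aja-miR-137. At equal miRNA totals Aja-miR-133 and Aja-miR-235a stayed among its 5 nearest and the miR-6236 and miR-6240 entries did not.

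The miR-6236 and miR-6240 names come from mouse sequences regarded as fragments of ribosomal RNA, and their 6 entries moved with the group. All 6 were called higher in DO2 than in DO8, and their sum took 3.44%, 1.80% and 0.358% of the miRNA values in DO2_1, DO2_2 and DO2_3 and 0.00404% to 0.0124% in the other libraries. DO2_1 was thus the highest and DO2_3 the lowest of the DO2 libraries. The deposited values of Aja-miR-153-1-p5, which rest on 5 to 9 reads there, had this order, but its reads and its RPM did not, and the values of Aja-miR-153-3p and Aja-miR-137 were highest in DO2_3. The value of Aja-miR-153-1-p5 was 0.0443% to 0.144% of that sum in DO2, 0 in DO4 and 0.690% to 3.66% in DO8. The 6 muscle entries took 3.81% to 6.22% of the values in the DO2 group, 2.24% to 2.63% in the DO4 group and 1.80% to 2.57% in the DO8 group. Of the 5 tested, 2 were called higher in DO2 than in DO8, beside 23.3% of the 90 tested entries. Most of the sum was Aja-miR-1a-3p, with means of 101709 in DO2 and 55209 in DO8. The means of Aja-miR-1, Aja-miR-133 and Aja-miR-206-3p were also higher in DO2. Those of Aja-miR-133-3p (5302 against 7380) and Aja-miR-133a-5p (48.3 against 72.7) were lower in DO2 than in DO8. The DO2 means of Aja-miR-133a-5p and of Aja-miR-206-3p, which was not tested, rest on DO2_3 alone (145 and 51.1). Both were at 0 in DO2_1 and DO2_2. Of the 13 tested entries of 18 nt, 6 were called higher and 2 lower in DO2 than in DO8, with a median log2 difference of 0.78. Over all 90 tested entries 23.3% were called higher and 7.78% lower. Aja-miR-153-1-p5 itself is among the 13. Some of the others were at 0 in every DO4 and DO8 library. Those entered the test through DO2 alone and could only be higher there, so the count is no independent background for Aja-miR-153-1-p5. The part of fragments, of muscle or of the number of miRNA reads in the values of the 3 entries was not tested.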

How the data were processed

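Small RNAs of 16 to 30 nt from the respiratory tree were sequenced by the study on an Illumina HiSeq instrument. Per the study's methods, reads were trimmed, reads under 18 nt and reads of rRNA, tRNA, snRNA and snoRNA were dropped, and what remained was matched with the animal entries of miRBase 21.0, up to 2 mismatches allowed. The labels name CASAVA 1.5. Their extraction text describes single animals and an oligo(dT) mRNA library, unlike the study's methods, whose account was used here. The deposited signal is the authors' read number per miRNA times 1 factor per library, whose source is not given in the sources used here. Dividing by clean reads, as described there, does not give these values. They are no counts, since 65.5% to 81.1% of the values in a library were whole reads within 0.02 of a read, so no count test was run. The worth of 1 read was taken from the read numbers in names of predicted miRNAs, or, in DO4_2 and DO8, from the steps of the values, and sums of such reads are below the study's own miRNA read numbers, which were not used.

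Here the tables of the 9 libraries were merged on the miRNA name plus its sequence. This gave 475 entries, of which 186 were known and 289 predicted. limma 3.58.1 (R 4.3.3) was fitted to log2(value + 1) with 1 mean per group and a variance trend. Shares and ratios were compared by exact permutation tests (scipy 1.17.1, Python 3.11.15), and duplexes were computed with ViennaRNA 2.7.2. Whether same-numbered libraries pair was checked, and of 9 pairs 2 had a correlation over 0.1, so no block was used. Entries named are those of families 153 and 137, those sharing a seed or an 8-base CT run with them, the nervous system list, the 5 most correlated entries for each, and the miR-6236 and miR-6240 sum. Further entries, such as Aja-miR-193-3p, were named after their values were seen. Members and lists were chosen with earlier results of these data known. Alternatives were other added constants, filters, scalings, a common floor, 2 groups only, a replicate block, no trend and leaving out libraries. The fit was tested on simulated data.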

Additional observations from a re-analysis of the deposited data

How the results depend on the processing

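The main limit is the scaling. In RPM of clean reads, the limma log2 difference of DO2 against DO8 was −0.54 for Aja-miR-153-3p, −0.76 for Aja-miR-137 and 0.10 for Aja-miR-153-1-p5, that of DO2 against DO4 was −0.85 for Aja-miR-137 and 0.10 for Aja-miR-153-3p, neither called, while Aja-miR-153-1-p5 stayed called at 0.74 (adjusted p = 0.0203), and the entries called rose from 28 to 65 (13 higher, 52 lower) and from 28 to 63 (13 higher, 50 lower). On that scale the mean of Aja-miR-137 in DO2 differed by −8.05 RPM from DO8, −13.9 from DO4 and −10.95 from both. This alternative for shares was chosen after the data had been seen.

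In DO2 against DO8 other alternatives ended calls by limma. For Aja-miR-153-1-p5 these were 0.01 added (2.50, adjusted p = 0.0508), no filter (2.21, 0.279) and a common floor of 12.4 (0.73, 0.270). For Aja-miR-153-3p they were 0.01 added (1.48, 0.0521), no filter (1.47, 0.248), median-ratio factors (1.400, 0.0567) and a fit of the 2 groups only (1.47, 0.0593), and for Aja-miR-137 no filter (1.41, 0.0537). In DO2 against DO4, Aja-miR-137 lost its call with no filter (1.15, 0.187), median-ratio factors (1.02, 0.0641) and 2 groups only (1.15, 0.107), and Aja-miR-153-1-p5 with the common floor (0.73, 0.237). In DO4 against DO8, Aja-miR-153-1-p5 was called with 0.01 added (−8.44, adjusted p = 0.000539, 1 entry called) and with 2 groups only (−2.17, 0.00928, 2 entries called). The difference of −8.44 is set by the constant added to a group at 0, and it was −0.44 with 10 added (adjusted p = 0.890), −0.64 in RPM (1.0) and 0.0 with the common floor (1.0). With 10 added, the log2 ratio of Aja-miR-153-3p to Aja-miR-137 differed by −0.048 in DO2 against DO8. The causes were not tested. Aja-miR-153-1-p5, with a mean of 9.03, did not enter the fit of entries with a mean of at least 10.

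With a replicate block, the call for Aja-miR-153-3p in DO2 against DO8 was lost (1.47, adjusted p = 0.0594), Aja-miR-153-1-p5 (2.21, 0.0331) and Aja-miR-137 (1.41, 0.0126) stayed called, and the entries called were 26 in DO2 against DO8, 27 in DO2 against DO4 and 0 between the others. No other call of the 3 entries changed under the block. Same-numbered libraries correlated at −0.372 to 0.234, so the samples share only a number.

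Leaving out 1 library at a time, the log2 difference of DO2 against DO8 ranged from 1.67 to 2.61 for Aja-miR-153-1-p5, 1.02 to 1.74 for Aja-miR-153-3p and 1.10 to 1.72 for Aja-miR-137, and that of DO2 against DO4 from 0.85 to 1.46 for Aja-miR-137. In DO4 against DO8 Aja-miR-153-1-p5 ranged from −2.39 to −1.97 and was called without DO2_1 (adjusted p = 0.0361). The share of Aja-miR-137 in DO4 against DO8 ranged from −20.7 to 24.3 ppm, its log2 ratio to the other nervous system entries from −0.0024 to 0.44, and the log2 ratio of Aja-miR-153-3p to Aja-miR-137 in DO2 against DO8 from −0.089 to 0.32. Between 18 and 32 entries were called in DO2 against DO8 and 0 to 2 in DO4 against DO8. Over all alternatives to its fit, Aja-miR-137 was called in 16 of 20 and 9 of 20 (DO2 against DO8 and against DO4), Aja-miR-153-3p in 9 of 20 and 19 of 20, and Aja-miR-153-1-p5 in 13 of 19 and 18 of 19. Values from fewer than 10 reads, all those of Aja-miR-153-1-p5, are limited by the number of reads.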

Other observations

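Aja-miR-14, the other entry with a CT run, was listed in DO4_3 alone, at a value of 35.5. Aja-miR-1357-p3, the only other entry whose name ends in p and an arm number, was listed in DO2_1 (24.7) and DO2_3 (35.3) and in no DO4 or DO8 library. Aja-miR-9, the nervous system entry that was not tested, was listed in DO4_3 (0.844) and DO8_1 (1.20). Of the remaining lists, 1 of 3 epithelium and cilia entries and 2 of 5 tRNA-like entries were called lower in DO2 than in DO8 and none higher. Over all 90 tested entries 7.78% were called lower and 23.3% higher. The 1 secretory cell entry, Aja-miR-375-3p, was not called (log2 difference 0.47, limma adjusted p = 0.338).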
